A study of Mus musculus with 24 samples.

Results

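Genes that load peptides onto class II molecules of the major histocompatibility complex (MHC) were examined in mouse peritoneal metastases. They are the 10 genes H2-Aa, H2-Ab1, H2-Eb1, H2-DMa, H2-DMb1, H2-DMb2, H2-Oa, H2-Ob, Cd74 and Ciita, taken by name from the deposited expression table with all transcript rows of a gene added together. The table holds 56422 gene names, and all 10 genes were among the 15163 that reached a level of 1 TPM in at least 6 of the 24 libraries. The unit TPM divides a transcript's reads by its length and scales each library to a fixed total, so that levels of different genes can be set side by side. The libraries were made from polyA RNA of metastasis tissue labelled as peritoneum, in 4 groups of 6. The control group had no treatment, 1 group had propionate, 1 had butyrate, and the combination group had both acids. Both acids are short-chain fatty acids that gut bacteria release from dietary fibre. The series title places the samples in work on ovarian cancer, anti-PD-1 treatment, mannose and gut metabolites, and the design asks how the tissue differed with each acid and with both. Dose, route, duration, strain, age, tumour line and any treatment that the groups shared were not found in the labels. Nothing in the labels says that the replicates of a group came from separate mice, so each p-value refers to the spread among these libraries and part of that spread may be technical.

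Class II molecules are pairs of an alpha and a beta chain on antigen-presenting cells such as dendritic cells, macrophages and B cells, where they show peptides from the endosome to CD4+ T cells. H2-Aa and H2-Ab1 encode the chains of the mouse I-A molecule, and H2-Eb1 encodes the beta chain of I-E. Cd74 encodes the invariant chain, which escorts new class II molecules to the endosome and leaves a fragment in their peptide groove. H2-DM, a pair of H2-DMa with a beta chain from H2-DMb1 or H2-DMb2, exchanges that fragment for other peptides, and H2-O, the pair of H2-Oa and H2-Ob, holds H2-DM back and is best known from B cells. Ciita encodes the class II transactivator, which does not bind DNA itself and joins the RFX, CREB and NF-Y proteins that sit on the X and Y boxes of class II promoters. Interferon gamma switches Ciita on in many cell types, while dendritic cells, macrophages and B cells use promoters of their own for it. H2-Ea, the gene of the I-E alpha chain, was listed at 0 in all 24 libraries.

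X and Y boxes are known from class II promoters, so the stretches around those found in the members are shown first. RefSeq promoter windows of build GRCm38.p6 were searched for 7 of the 10 genes, with 2 windows for H2-DMa. Each window was 300 bases long, from 250 bases before the annotated start to 50 after it. No window was found for H2-Ab1 or Ciita, and Cd74 was left out of the search. The shares of members given below therefore do not cover Cd74, and whether it has the motifs was not tested. Both strands were searched for the Y box TGATTGG and the X box core GNAAC, motifs and spacing that were chosen after the promoters had been seen. The letters of the motifs cannot overlap in the pairs counted, since 12 to 32 bases were required between an X core and the Y box after it. The Y box was present in 6 of the 8 windows, against 7.82% of all 32851 windows in the table. The X core alone is a common string, found in 84.8% of the windows, and the ordered pair occurred in 5 of the 8 windows against 0.584% of all windows. Counted by gene, 5 of the 7 members searched and 0.673% of 27025 genes had the pair. Capitals mark the X core and the Y box, and each stretch is given 5′ to 3′ on the gene's own strand.
H2-Aa, chr17:34287859-34287912, minus strand: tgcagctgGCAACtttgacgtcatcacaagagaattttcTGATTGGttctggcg
H2-Eb1, chr17:34305768-34305820, plus strand: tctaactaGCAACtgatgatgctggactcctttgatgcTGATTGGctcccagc
H2-DMb1, chr17:34153089-34153142, plus strand: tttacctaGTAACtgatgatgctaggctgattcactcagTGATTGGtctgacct
H2-DMb2, chr17:34145119-34145171, plus strand: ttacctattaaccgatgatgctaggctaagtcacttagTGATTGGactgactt
H2-Oa, chr17:34092295-34092348, plus strand: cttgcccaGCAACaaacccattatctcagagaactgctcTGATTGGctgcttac
H2-Ob, chr17:34238810-34238860, plus strand: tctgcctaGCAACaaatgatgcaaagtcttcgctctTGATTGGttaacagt

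The distance between X core and Y box was 26 bases in H2-Aa, H2-DMb1 and H2-Oa, 25 in H2-Eb1 and 23 in H2-Ob. Their Y boxes began between position -63 (H2-DMb1) and position -45 (H2-Oa) from the start. H2-DMb2 had its Y box at -92 with no GNAAC at that spacing, although its stretch resembles that of its neighbour H2-DMb1. Neither H2-DMa window held the Y box. Among the genes of the other class II and marker lists used here, H2-Eb2 alone had the ordered pair. These matches describe letters in the windows and do not show that a protein was bound there.

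**Figure D1:**
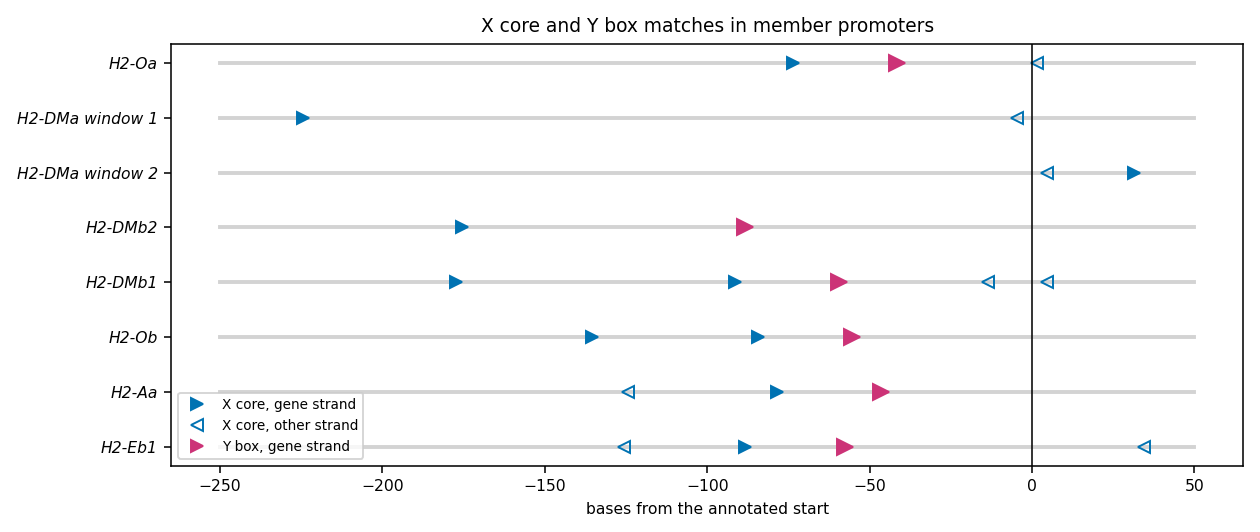
Positions of X core (small triangles) and Y box (large triangles) matches in the 8 promoter windows of 7 genes, in bases from the annotated start; filled symbols lie on the gene's strand and open ones on the other strand. In 5 genes an X core and a Y box lie as a pair upstream of the start, with the Y box between -63 and -45.

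Before the levels are given, 2 libraries need naming. Combination replicate 5 held the skeletal muscle actin Acta1 at 2.52 TPM, against 5384 to 26808 in the other 23 libraries, and the B cell receptor component Cd79a at 275 TPM, against at most 3.62. It also held Ptprc, the CD45 gene of all leukocytes, at 221.5 TPM against 4.64 to 33.6, and the mesothelial factor Wt1 at 0. Control replicate 3 was the lowest control library for each of the 10 members, and its Wt1 level was 0.65 TPM against 131 to 368 in the other 5 controls. The label of peritoneum was checked against 6 mesothelial genes, whose summed level ran from 8.44 to 1058 TPM, and against 6 skeletal muscle genes, whose summed level was 18522 to 95985 TPM outside combination replicate 5. A list of epithelial and carcinoma genes summed to 1.28 to 513 TPM. Combination replicate 5, with Wt1 at 0, held the mesothelial genes at 347.7 TPM in sum. The libraries thus held very unequal amounts of RNA of the mesothelial list and, all but 1, much muscle RNA. Which cells expressed the mesothelial genes was not tested. The comparisons that either library moved most are given with and without it. In bulk tissue, fewer class II positive cells and less class II RNA per cell cannot be told apart.

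The classical chains were among the abundant transcripts of the tissue. Over the 24 libraries the median level was 692 TPM for H2-Aa, 624 for H2-Eb1 and 460 for H2-Ab1, ranks 157, 176 and 236 of the 15163 genes. In the control group H2-Aa ran from 201 to 1188 TPM with a median of 1054. With propionate it ran from 257 to 1916 TPM with a median of 384, and with butyrate from 183 to 875 with a median of 453. With both acids it ran from 267 to 2199 TPM with a median of 1125. The propionate group was split, with replicates 3 and 4 at 1916 and 1830.5 TPM and the other 4 libraries at or below 484. Controls other than replicate 3 lay close together, from 894 to 1188 TPM, and every butyrate library lay below them. Because control replicate 3 sat at the level of the low butyrate libraries, the groups overlapped.

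H2-Ab1, the I-A beta chain, followed the same pattern at a lower level. It ran from 146 to 767 TPM in controls (median 661), from 181 to 1166 with propionate (median 269), from 129 to 565 with butyrate (median 302) and from 202 to 1325 with both acids (median 741). H2-Eb1 ran from 165 to 1147 TPM in controls (median 1025), from 213 to 1744 with propionate (median 345), from 140 to 861 with butyrate (median 380) and from 221 to 1949.5 with both acids (median 925). Within a library the 3 chains kept nearly fixed proportions. The ratio of H2-Aa to H2-Ab1 stayed between 1.33 and 1.75 and that of H2-Aa to H2-Eb1 between 1.01 and 1.30, while each chain on its own varied 10.2-fold (H2-Ab1) to 13.9-fold (H2-Eb1) between its lowest and highest library.

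Cd74 was the highest of the 10 genes, with a median of 1044 TPM and rank 95. The invariant chain ran from 328 to 2113 TPM in controls (median 1957), from 363 to 3200.1 with propionate (median 579.9), from 295 to 1389 with butyrate (median 706) and from 444 to 3334 with both acids. Its 5 highest libraries were combination replicates 3, 4 and 5 and propionate replicates 3 and 4. The 10 libraries highest in Cd74 were the same 10 as for H2-Aa. Together the 10 members made up 0.419% ± 0.171 (SD, n = 6) of all TPM in controls, 0.364% ± 0.353 with propionate, 0.200% ± 0.110 with butyrate and 0.499% ± 0.314 with both acids.

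**Figure D2:**
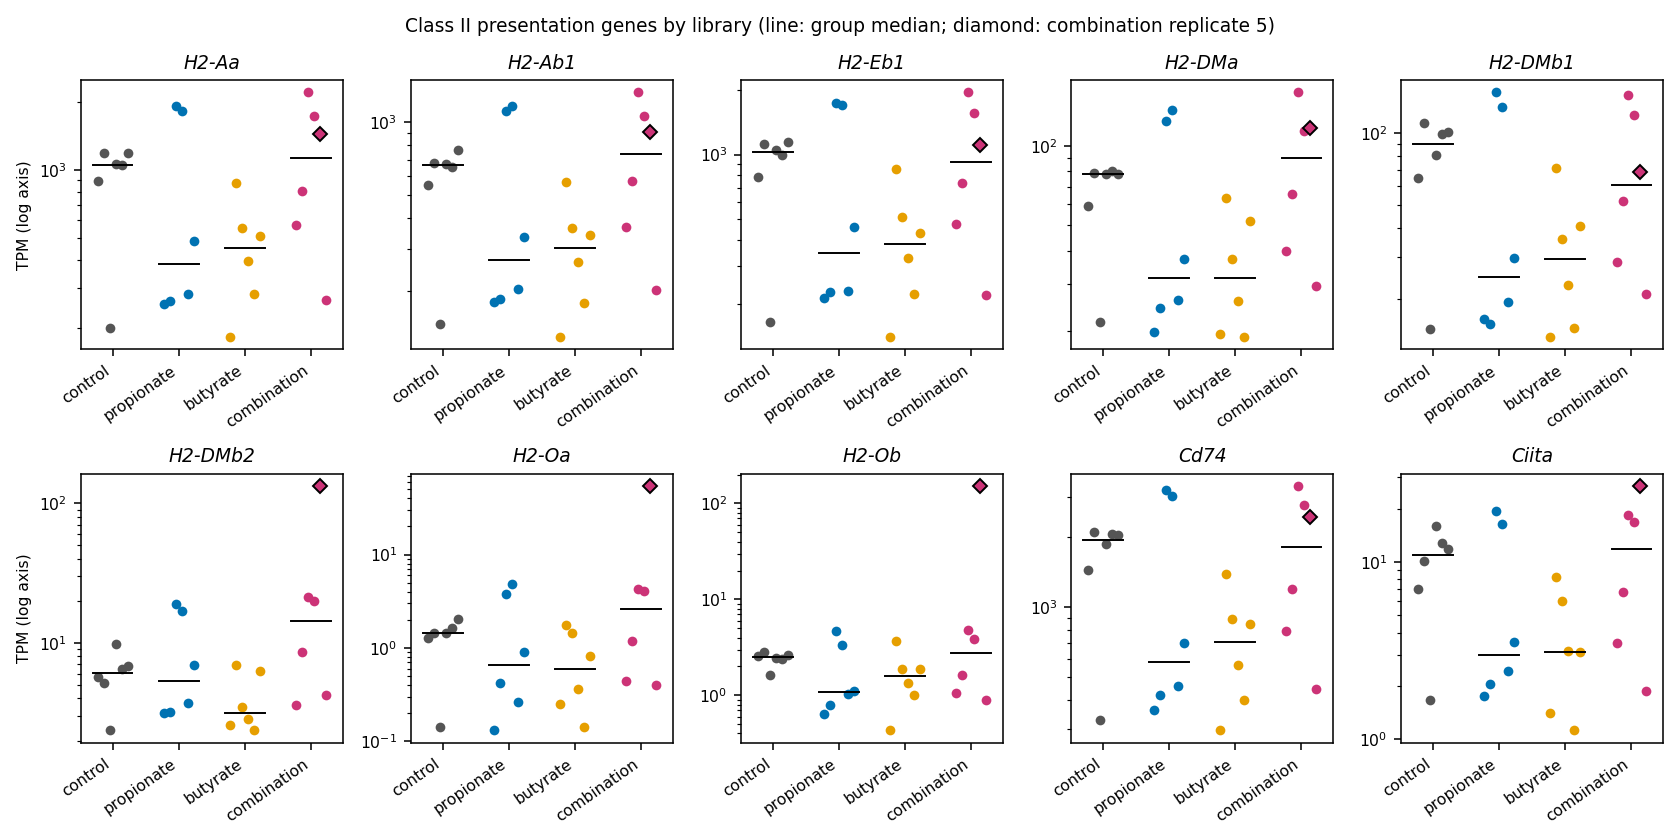
Level of each gene in each of the 24 libraries, in TPM on log axes, by group; lines are group medians and the diamond is combination replicate 5. The groups overlap for every gene, and combination replicate 5 lies far above the other libraries for H2-DMb2, H2-Oa and H2-Ob.

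The H2-DM genes stood an order of magnitude below the classical chains, with medians of 55.6 TPM for H2-DMa, 46.1 for H2-DMb1 and 6.02 for H2-DMb2. H2-DMa, the alpha chain of the peptide exchanger, ran from 21.5 to 80.0 TPM in controls (median 78.4), from 19.7 to 137 with propionate (median 31.7), from 18.9 to 63.2 with butyrate (median 31.7) and from 29.5 to 159 with both acids (median 89.9). H2-DMb1 ran from 15.0 to 110.5 TPM in controls (median 90.1), from 15.7 to 148 with propionate (median 24.7), from 13.8 to 71.2 with butyrate (median 29.4) and from 21.1 to 144 with both acids (median 60.3). The low libraries were again control replicate 3, propionate replicates 1, 2, 5 and 6, most butyrate libraries and combination replicates 1 and 6.

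H2-DMb2, the second beta chain gene, departed from that order. It ran from 2.39 to 9.85 TPM in controls (median 6.10), from 3.14 to 18.9 with propionate (median 5.34), from 2.36 to 6.90 with butyrate (median 3.17) and from 3.62 to 133 with both acids (median 14.2). Combination replicate 5 held 133 TPM, 6.22 times the next library, and without it the combination mean went from 31.7 ± 50.1 to 11.5 ± 8.51 (SD, n = 5). In that library H2-DMb2 supplied 65.8% of the summed TPM of both beta chain genes, against 4.47% to 18.9% in the other 23. The coding regions of H2-DMb1 and H2-DMb2 are near-identical copies, so reads may have been split between them in a way that the table does not show, and their separate levels are uncertain.

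The H2-O genes were the least abundant, at a median of 1.88 TPM for H2-Ob and 1.24 for H2-Oa. H2-Ob, the beta chain of this inhibitor, ran from 1.61 to 2.80 TPM in controls (median 2.52), from 0.64 to 4.64 with propionate (median 1.08), from 0.43 to 3.68 with butyrate (median 1.61) and from 0.89 to 152.5 with both acids (median 2.74). H2-Oa, the alpha chain, ran from 0.14 to 2.04 TPM in controls (median 1.45), from 0.13 to 4.86 with propionate (median 0.66), from 0.14 to 1.74 with butyrate (median 0.59) and from 0.40 to 54.5 with both acids (median 2.62). Combination replicate 5 was the highest library for both, 31.4 times the next library for H2-Ob and 11.2 times for H2-Oa. Without it the combination means were 2.46 ± 1.79 TPM for H2-Ob and 2.07 ± 1.94 for H2-Oa, beside 2.41 ± 0.421 and 1.34 ± 0.641 in controls.

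For the classical chains the same library lay within the range of the others. Its rank among the 24 was 5 for H2-Aa, H2-Ab1 and Cd74, 7 for H2-Eb1, 4 for H2-DMa and 10 for H2-DMb1. The summed H2-O genes came to 65.0% of the summed H2-DM genes there and to 1.90% to 4.51% in the other 23 libraries. The B cell list, of which 4 of 10 genes passed the filter, summed to 1128 TPM in it and to 1.76 to 17.2 elsewhere. T cell genes summed to 809 TPM against 2.81 to 59.1 and lymphoid stroma genes such as Ccl21a to 5999.8 against 108 to 833, while macrophage genes, at 807 TPM, lay within the range of 299 to 1557. What part these cell types had in the H2-O and H2-DMb2 levels was not tested.

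**Figure D3:**
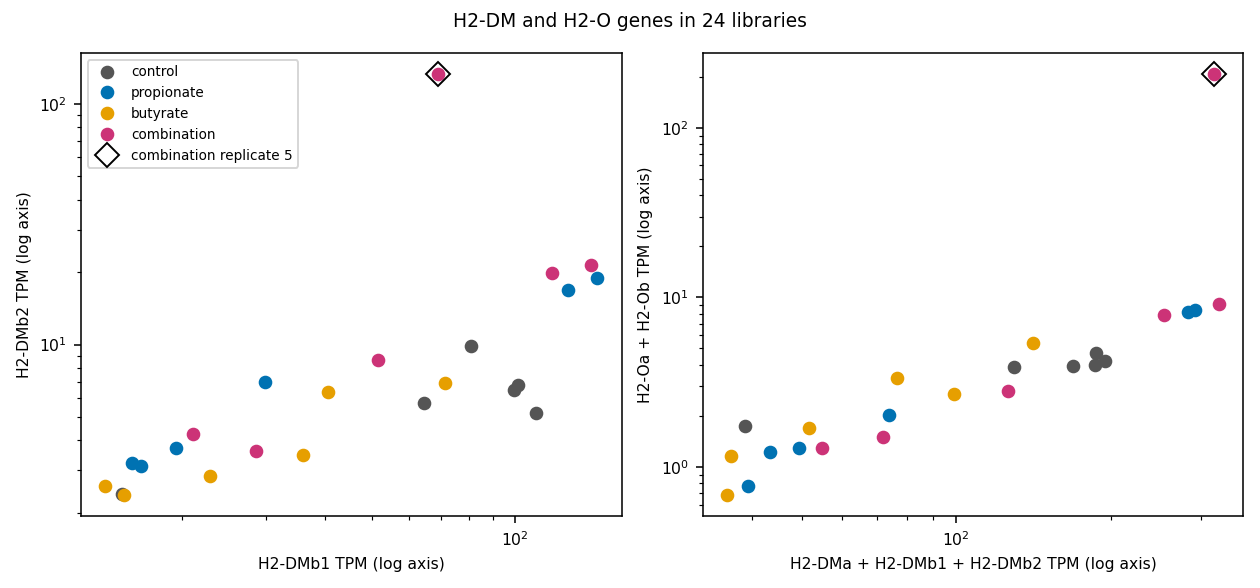
H2-DMb2 against H2-DMb1 (left) and the summed H2-O genes against the summed H2-DM genes (right) in the 24 libraries, in TPM on log axes, coloured by group. Combination replicate 5 stands alone at the top of both panels, with H2-O at 65.0% of H2-DM against at most 4.51% elsewhere.

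Ciita, the transactivator, was expressed at a median of 6.40 TPM. It ran from 1.66 to 15.9 TPM in controls (median 11.0), from 1.75 to 19.3 with propionate (median 2.97), from 1.12 to 8.18 with butyrate (median 3.12) and from 1.86 to 26.9 with both acids (median 11.9). Its highest library was combination replicate 5, followed by propionate replicate 3 and combination replicate 3. Of its 10 highest libraries, 9 were also among the 10 highest for H2-Aa. Across the 24 libraries the Pearson correlation of Ciita with the other members on the log2(TPM + 1) scale was 0.943 to 0.972 for the classical chains, Cd74, H2-DMa and H2-DMb1, 0.827 for H2-DMb2, 0.821 for H2-Oa and 0.697 for H2-Ob. Without combination replicate 5 the last 3 values were 0.872, 0.937 and 0.906. These libraries share tissue makeup, so the correlations are descriptions.

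Between the groups, the order of mean levels was combination, control, propionate, butyrate for H2-Aa, H2-Ab1, H2-Eb1, H2-DMa, Cd74, Ciita and H2-Ob. For H2-DMb1 controls came first and the combination group next. For H2-DMb2 and H2-Oa propionate came ahead of control, and butyrate had the lowest mean for all 10 genes. No neighbours in these orders differed beyond their spread, since each gap was 0.088 to 0.816 times the larger SD of the groups beside it. By median instead, propionate lay below butyrate for H2-Aa, H2-Ab1, H2-Eb1, H2-DMb1, H2-Ob, Cd74 and Ciita, and above it for H2-DMa, H2-DMb2 and H2-Oa. Without combination replicate 5 the combination mean of Ciita was 9.51 TPM, below the 9.90 of controls. That of H2-Ob was then 2.46 beside 2.41 in controls.

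Proportions between members were compared within each library, a set of 9 ratios in 3 comparisons with control, chosen after the data had been seen and each tested two-sided by exact permutation of the 924 possible arrangements of 6 against 6 libraries. The smallest p this test allows is 0.00216, and p-values were adjusted over the 27 tests. The H2-DMb1 to H2-DMb2 ratio had a geometric mean of 11.9 in controls, 5.71 with propionate, 7.57 with butyrate and 4.13 with both acids. Against control the propionate difference was -1.06 on the log2 scale (SE 0.30, exact p = 0.00866, adjusted 0.0974), with 2 of 36 pairs of libraries higher. For the combination it was -1.53 (SE 0.66, exact p = 0.00866, adjusted 0.0974), also with 2 of 36 pairs higher, and -0.93 without replicate 5 (adjusted exact p = 0.129). The ratio of Cd74 to H2-Aa was 1.74 in controls and 1.56, 1.55 and 1.55 with propionate, butyrate and both acids. For butyrate this was -0.17 on the log2 scale (SE 0.06, exact p = 0.0108, adjusted 0.0974), with 2 of 36 pairs higher. None of the 27 ratios passed an adjusted p of 0.05, and the smallest adjusted exact p when any 1 library was left out was 0.0526.

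The remaining ratios put the classical chains beside the loading genes and beside cell markers. Classical chains were 15.5-fold over the H2-DM genes in controls and 16.1-fold, 16.2-fold and 15.3-fold in the propionate, butyrate and combination groups, as geometric means. H2-DMa over both beta chain genes was 0.834 in controls and 1.00, 1.02 and 0.945 in the treated groups. H2-Aa per unit of Ptprc was 59.3 in controls, 51.0 with propionate, 36.6 with butyrate and 31.8 with both acids, with unadjusted exact permutation p-values of 0.563, 0.0758 and 0.154. The combination value rested on replicate 5, where the ratio was 6.49, and was 43.7 without it, above that of butyrate, while the control value was 71.8 without control replicate 3. H2-Aa per unit of the macrophage complement gene C1qa was 3.31, 3.57, 2.70 and 3.57 in that order of groups. Without control replicate 3 the control value was 3.72, above all treated groups, and without combination replicate 5 the combination value was 3.18, below controls. H2-DMa over both beta chain genes was 1.04 in the combination group without replicate 5 and 0.771 in controls without replicate 3.

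Differences between groups were then tested with limma on log2(TPM + 1) over all 15163 genes, with all 24 libraries in one fit. A log2 value here is a difference of means on that scale, which understates the change of genes near 1 TPM such as H2-Oa and H2-Ob. In each of the 7 comparisons, 0% of all genes and none of the 10 members passed an adjusted p of 0.05. The 3 comparisons with control share their 6 control libraries, and each is described by its own values.

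With propionate alone, class II genes had lower average levels than in controls but a wide spread. The differences were -0.52 ± 0.60 (SE) for H2-Aa, -0.44 ± 0.55 for H2-Ab1, -0.67 ± 0.62 for Cd74, -0.80 ± 0.62 for H2-DMb1 and -0.66 ± 0.62 for Ciita, while H2-DMb2 was at 0.23 ± 0.61. The adjusted p-values of the members lay between 0.407 and 0.971. The difference was below 0 for 9 of 10 members and for 79.3% of all genes, and the members' median of -0.48 stood beside -0.30 for all genes. At an unadjusted p under 0.05, 0 of 10 members and 9.13% of all genes were lower. The groups lay fully apart, with propionate lower, for 0 members and 0.0264% of genes. In 16 of 36 pairs of libraries H2-Aa was higher with propionate than in the control. The size of these differences rested on single libraries. Without control replicate 3 the members' median was -0.86, H2-Aa was at -0.92 and H2-DMb2 at 0.035. Leaving out 1 propionate library put the median between -0.27 (without replicate 1) and -0.81 (without replicate 3 or 4), with H2-Aa at -0.87 and H2-DMb2 at -0.037 without replicate 3. Weighting each library by its fit put the median at -1.63 and H2-DMb2 at -0.71 and called all 10 members lower.

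With butyrate alone the members had their lowest mean levels of any group, though not all had their lowest median there. H2-DMb1 was at -1.21 ± 0.62 (SE), Ciita at -1.17 ± 0.62, Cd74 at -1.13 ± 0.62, H2-Eb1 at -1.08 ± 0.64 and H2-Aa at -0.96 ± 0.60 against control, and H2-Aa was higher with butyrate in 5 of 36 pairs. H2-Ob and H2-Oa differed least, at -0.42 and -0.40. The adjusted p-values ran from 0.155 for H2-DMb1 to 0.660 for H2-Ob. All 10 members and 78.8% of all genes were below 0, with medians of -0.93 and -0.38. At an unadjusted p under 0.05, 0 members but 35.1% of all genes were lower, and the groups lay fully apart, with butyrate lower, for 0 members and 1.82% of genes. Without control replicate 3 the fit called 5654 genes, among them H2-DMb1 (-1.63, adjusted p = 0.0398) and Cd74 (-1.56, adjusted p = 0.0466), and the members' median was -1.31. Weights per library called 9 members lower, and a block by library number called 7.

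With both acids the average levels of the classical chains were near those of controls. H2-Aa differed by 0.21 ± 0.60 (SE), H2-Ab1 by 0.26 ± 0.55, H2-Eb1 by 0.10 ± 0.64, Cd74 by 0.04 ± 0.62 and Ciita by 0.07 ± 0.62. H2-DMb2, at 1.23 ± 0.61 (adjusted p = 0.494, higher in 25 of 36 pairs), H2-Oa, at 0.95 ± 0.65, and H2-Ob, at 0.81 ± 0.71, differed most, and H2-DMb1 was at -0.20 ± 0.62. Above 0 were 9 of 10 members and 34.1% of all genes, with medians of 0.23 and -0.12. At an unadjusted p under 0.05, 0 members and 6.2% of genes were higher, and the groups lay fully apart, with the combination higher, for 0 members and 0.633% of genes. The count above 0 rested on combination replicate 5. Without that library 6 of 10 members were above 0, the median was 0.04, and H2-DMb2 was at 0.61, H2-Oa at 0.21, H2-Ob at -0.12 and Ciita at -0.22. Without control replicate 3 instead, 3 of 10 were above 0 and the median was -0.15, and without combination replicate 6 the median was 0.56. With weights per library 1 of 10 was above 0, with a median of -0.43, and none of the 5786 genes called was a member.

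Against the single acids, the combination had higher averages for all 10 members. Compared with propionate, the members' median was 0.72 beside 0.19 for all genes, of which 76.9% were above 0. H2-Aa was at 0.73 ± 0.60 and H2-Ob at 1.19 ± 0.71, the latter 0.26 without combination replicate 5. Weights per library called 6 members higher in this comparison. The adjusted p-values were 0.618 to 0.741, 0 members and 8.43% of genes were higher at an unadjusted p under 0.05, and the groups lay fully apart for 0 members and 0.138% of genes. Compared with butyrate, the median was 1.18 beside 0.30 for all genes, of which 81.6% were above 0. H2-DMb2 was at 1.71 ± 0.61 and H2-DMa at 1.16 ± 0.51, both with an adjusted p of 0.317, and Ciita was at 1.24 ± 0.62. Higher at an unadjusted p under 0.05 were 4 of 10 members, namely H2-Ab1, H2-DMa, H2-DMb2 and H2-Oa, against 14.6% of all genes, and the groups lay fully apart for 0 members and 0.686% of genes. Without combination replicate 5 all 10 members stayed above 0, with a median of 1.03, and H2-DMb2 was at 1.09, H2-Oa at 0.61 and H2-Ob at 0.30.

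Between the single acids, butyrate had the lower average for all 10 members, as for 70.3% of genes. The members' median was -0.46 beside -0.09 for all genes, from -0.71 ± 0.61 for H2-DMb2 to -0.04 ± 0.71 for H2-Ob. Every adjusted p was 1, and 0 members and 0.541% of genes had butyrate lower with an unadjusted p under 0.05, with the groups fully apart for 0 members and 0.0462% of genes. The size rested on the high propionate libraries, since the members' median was -0.14 without propionate replicate 3 and -0.12 without replicate 4. With weights per library 9 of 10 members were above 0, with a median of 0.19, H2-Aa at 0.26 and Cd74 at 0.22.

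The interaction compares the combination with the sum of the single-acid differences on the log2 scale. For all 10 members and 83.7% of all genes the combination lay above that sum, with a median of 1.65 for the members and 0.62 for all genes. Ciita was at 1.90 ± 0.87 (SE, adjusted p = 0.133), Cd74 at 1.85 ± 0.88 (adjusted p = 0.139), H2-DMa at 1.59 ± 0.72 (adjusted p = 0.131) and H2-Aa at 1.69 ± 0.85 (adjusted p = 0.147). At an unadjusted p under 0.05, 3 of 10 members, namely H2-DMa, Cd74 and Ciita, and 34.8% of all genes lay above. Without combination replicate 5 the median was 1.53. Without propionate replicate 3 the fit called 5619 genes, among them H2-DMa (1.88, adjusted p = 0.0433), H2-DMb1 (2.19, adjusted p = 0.0472), Cd74 (2.22, adjusted p = 0.0467) and Ciita (2.25, adjusted p = 0.0441). Without control replicate 3 it called none, with a smallest adjusted p among the members of 0.0518. Weights per library called all 10 members above, and a block by library number called 7.

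**Figure D4:**
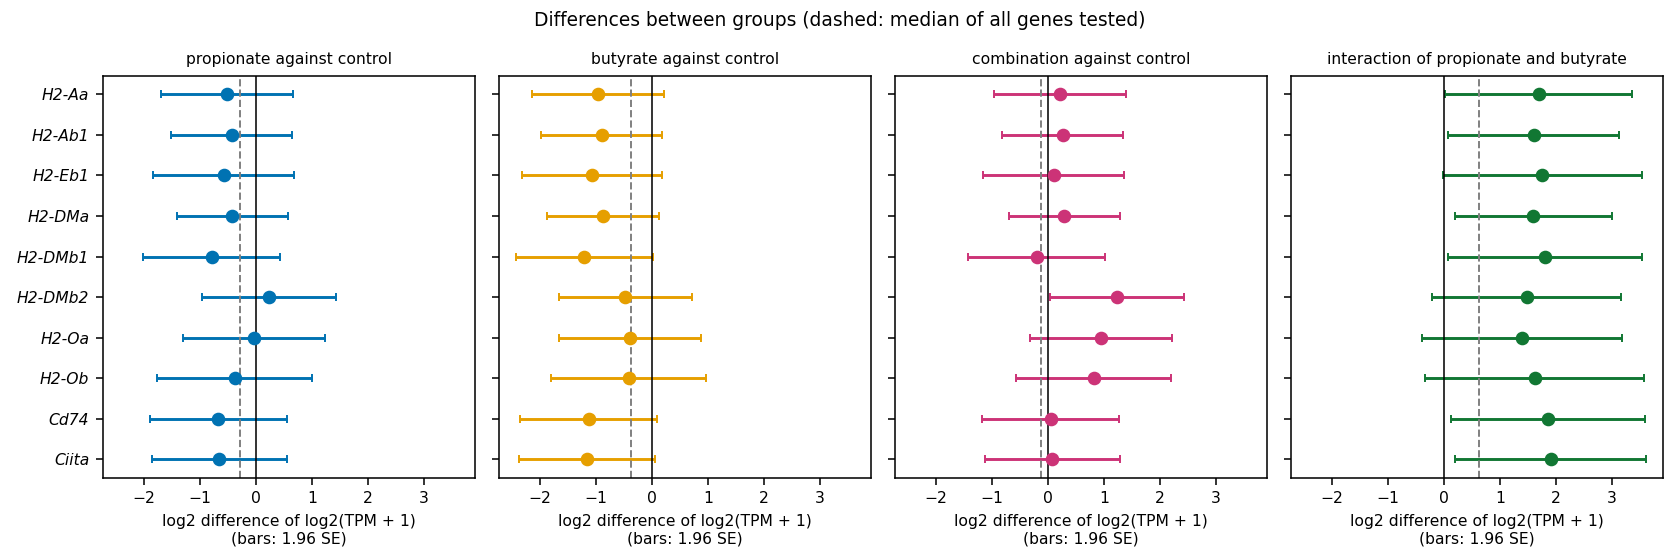
Difference of mean log2(TPM + 1) for each gene against control and for the interaction, with bars of approximate 95% intervals and dashed lines at the median of all 15163 genes. Butyrate has all 10 genes below 0, the combination has 9 above 0, and the interaction has all 10 above the median of all genes.

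Other genes of the pathway were followed through 6 lists, and 0 of their tested genes passed an adjusted p of 0.05 in any of the 7 comparisons. Their medians are to be read beside those of all genes, -0.30 with propionate, -0.38 with butyrate and -0.12 with both acids against control. Endosomal processing covers the proteases and the reductase that trim the invariant chain and the antigens. Its 9 genes were below control in 9 of 9 cases with propionate (median -0.52) and with butyrate (median -0.54), and above control in 6 of 9 with both acids (median 0.07). Ctss, the protease that makes the last cuts in the invariant chain, averaged 206 TPM in controls and 164 with propionate. It averaged 113 TPM with butyrate and 229 with both acids. These averages include 313.67 TPM in combination replicate 5 and 52.74 in control replicate 3. On the log2 scale Ctss differed by 0.07 ± 0.61 (SE) for the combination against control. Ifi30, the lysosomal thiol reductase, averaged 70.3, 51.1, 39.8 and 87.4 TPM, the last 66.8 without combination replicate 5. Lgmn, an asparagine endopeptidase, had its highest average in controls, at 149 TPM, against 93.0, 86.0 and 108.

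The list of promoter-bound proteins and their co-factors, which includes the RFX, CREB and NF-Y genes, lay below control for 10 of 10 genes with either single acid (medians -0.31 and -0.43) and for 9 of 10 with both (median -0.13). Rfx5, a subunit of the X box factor, averaged 8.50 TPM in controls and 5.25, 4.39 and 7.98 in the treated groups. The last average included 16.77 TPM in combination replicate 5, the highest of the 24 libraries, while the other combination libraries held 3.55 to 9.42. Among regulators of Ciita, 11 of 12 tested genes were below control with either single acid (medians -0.31 and -0.38) and 10 of 12 above it with both (median 0.18). Irf1, an interferon-induced transcription factor, averaged 36.0 TPM in controls, 30.2 with propionate, 19.5 with butyrate and 54.2 with both acids, the last 45.2 without combination replicate 5. Irf4, a factor of activated lymphocytes and dendritic cells, was at 0.78 ± 0.24 (SE) for the combination against control (adjusted p = 0.269). Its levels were 2.05 to 3.04 TPM in controls and 3.23 to 5.70 in the combination group without replicate 5, which itself held 14.95.

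Genes that remove or protect class II molecules at the cell surface were 4 in number, all below control with either single acid (medians -0.36 and -0.53) and 2 above it with both (median 0.11). The ubiquitin ligase gene Marchf1 was at 0.88 ± 0.35 (adjusted p = 0.388) for the combination against control and averaged 3.91 TPM in controls and 8.99 in the combination group, or 6.50 without replicate 5. Neighbours of the members in the class II region, with 6 of 8 tested, were below control for 6 of 6 genes with either single acid (medians -0.36 and -0.79) and above it for 5 of 6 with both (median 0.58). Psmb8, an immunoproteasome subunit of class I processing, averaged 72.9 TPM in controls, 71.4 with propionate, 42.1 with butyrate and 146 with both acids, or 117 without combination replicate 5. Of the 6 genes for class II ligands and costimulation, 4 were below control with either single acid (medians -0.08 and -0.19). With both acids all 6 were above control (median 0.51). Cd80 was at 0.41 ± 0.18 (adjusted p = 0.420) and Cd4, the coreceptor that binds class II, at 1.22 ± 0.60 (adjusted p = 0.488). The summed level of this list averaged 26.2 TPM in controls and 54.9 in the combination group. Combination replicate 5 held 165.58 of it, and without that library the combination average was 32.75. In the interaction every tested gene of the 6 lists was above 0, with list medians from 0.69 to 1.74 beside 0.62 for all genes.

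High levels of the members went with markers of tissue makeup. Of the 10 libraries highest in H2-Aa, 9 were also among the 10 highest in Wt1, 8 in C1qa and 7 in Ptprc. Wt1 was 254 to 336 TPM in propionate replicates 3 and 4 and at most 21.3 in the other 4 propionate libraries, the same division as for H2-Aa. The mesothelial list of 6 genes summed to 9.73 to 1058 TPM in controls, 19.0 to 864 with propionate, 8.44 to 371 with butyrate and 14.5 to 611.5 with both acids, with Wt1 at 0 in combination replicate 5 alone. Against control its 6 genes were all below 0 with propionate (median -1.54), with butyrate (median -1.84) and with both acids (median -1.92). The macrophage list of 10 genes summed to 403 to 1273 TPM in controls, 315 to 1216 with propionate, 299 to 891 with butyrate and 668 to 1557 with both acids, and its genes were below control for 10 of 10 with propionate (median -0.53) and 9 of 10 with butyrate (median -0.59) and above it for 10 of 10 with both acids (median 0.10). The dendritic cell list of 10 genes summed to 28.6 to 54.8, 16.2 to 77.9, 19.9 to 50.8 and 30.8 to 269 TPM in the same order, the last 90.5 at most without combination replicate 5. Of the dendritic cell genes, 7 of 10 were below control with propionate (median -0.19) and 7 of 10 with butyrate (median -0.27). With both acids 9 of 10 were above control (median 0.56). The medians of all genes in these comparisons were -0.30, -0.38 and -0.12. B cell genes outside combination replicate 5 summed to at most 17.2 TPM. The part of these cell types in the differences between groups was not tested.

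**Figure D5:**
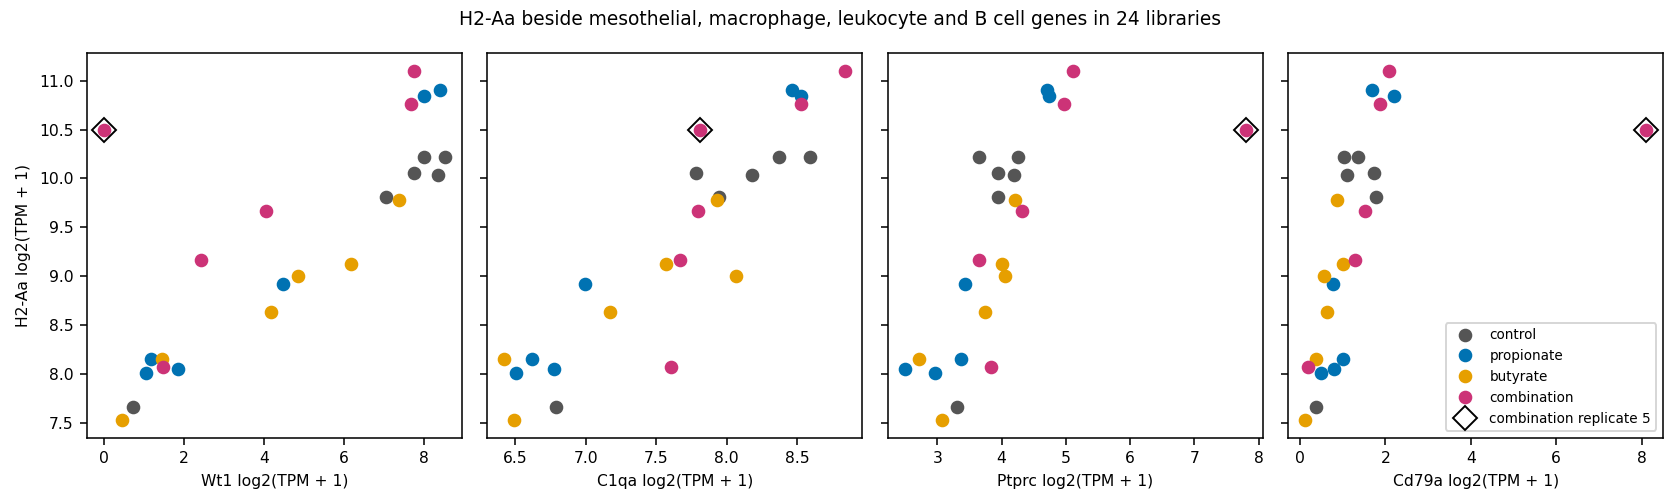
H2-Aa against Wt1, C1qa, Ptprc and Cd79a in the 24 libraries, all as log2(TPM + 1), coloured by group with combination replicate 5 as a diamond. Libraries high in H2-Aa are mostly those high in Wt1 (9 of the 10 highest) and C1qa (8 of 10). Combination replicate 5 stands apart in Ptprc and Cd79a. Its Wt1 of 0 lies near that of other low libraries, which held less H2-Aa.

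Outside the members, the genes whose log2(TPM + 1) over the 24 libraries was most like the members' mean standardised level were Il10ra (Pearson r = 0.984), Bcl2a1d (0.980), Glipr1 (0.979), H2-T23 (0.977) and Sp140 (0.977). Without combination replicate 5 they were Spn (0.988), Il10ra (0.984), Gpr65 (0.982), Bcl2a1d (0.980) and Klra2 (0.978). For Ciita alone the closest were Itgax (0.974), Plagl2 (0.973) and Sh3bp2 (0.973), and Itgax, the CD11c gene, was also closest without that library (0.974). For H2-Ob alone they were Grap2 (0.980), Rubcnl (0.978) and Lax1 (0.975) with all libraries, and Rnf180 (0.957), Ppfia4 (0.951) and Zfp995 (0.950) without combination replicate 5. Among the members themselves the lowest correlation was 0.500 between H2-DMb1 and H2-Ob, and 0.826 between H2-DMb2 and H2-Ob without that library.

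At transcript level the 10 genes had 53 rows, of which 24 reached 1 TPM in at least 6 libraries. The rows carry gene names only, so isoforms are not named. H2-Aa came from 1 row at 99.0% to 99.9% of its TPM in every library, and the main row of H2-Ab1 held 95.6% to 99.3%. H2-Eb1 was divided over 4 rows at 10.4% to 19.9%, 20.1% to 31.0%, 23.2% to 33.3% and 24.0% to 37.5%. The main row of H2-DMa held 92.2% to 98.4%, that of H2-DMb2 71.7% to 95.8% and that of Ciita 64.5% to 95.5%. Combination replicate 5 differed from the rest in a few of these shares. The main row of H2-DMb1 held 80.3% there against 98.0% to 100% elsewhere, and the second row of Cd74 held 13.7% against 17.6% to 23.6%. H2-DMa, H2-Oa and Ciita overlap the genes Brd2, BC051537 and Dexi in the RefSeq annotation, and whether the authors' counting used strand is not given, so reads of those genes cannot be told apart where they overlap.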

How the data were processed

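RNA was extracted with TRIzol and made into stranded polyA libraries, per the labels' protocols. The authors deposited 1 table of TPM values, a length-normalised transcript abundance, per transcript row, made with fastp, HISAT2 and StringTie on build mm39 per the submitters' processing notes. Versions, settings and annotation: not given in the sources used here. Because TPM carries no read counts, the depth behind each value is unknown and no counting interval is given. Each library held 12618 to 15418 genes at 1 TPM or more. Among the 149132 rows, 1001 without a gene name, holding 0.174% to 0.470% of the TPM, were left out, and the others were summed by gene name. Genes with at least 1 TPM in at least 6 libraries were kept. Differences on log2(TPM + 1) were fitted with limma 3.58.1 (trend and robust options) in R 4.3.3 over 4 groups of 6, with Benjamini-Hochberg adjustment over all 15163 genes and a threshold of 0.05, and the script was tested on simulated data. Ratios within libraries were tested by exact permutation. No 2 libraries held identical values (highest Pearson r 0.986).

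All 10 members are named in every comparison. From each other list up to 4 genes of smallest unadjusted p for the combination against control could be named, plus fixed loading, regulator and cell marker genes, together with the genes closest in pattern. The exceptions are Wt1, Acta1, C1qa, H2-Ea, H2-Eb2 and the overlapping genes, named after their values had been seen. The members and lists were chosen with earlier results of these data known. Alternatives were another pseudocount (0.1), no filter, a 5 TPM filter, median-of-ratios scaling, quantile normalization, weights per library, only the compared groups, no trend or robust option, 2 replicate blocks and leaving out each library. The reference at hand is GRCm38, so it was used for promoters, gene names and overlaps, and no mm39 coordinates are given.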

Additional observations from a re-analysis of the deposited data

Results flagged for a closer look

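For 9 of the 40 combinations of gene and group, 1 library lay farther from its group than the 95% limit of Dixon's gap test allows. Chance alone gives about 1 in 20 for a single combination. The members vary together across libraries, so the 40 are not independent and their count cannot be set against that rate. All 9 came from control replicate 3 or combination replicate 5. Control replicate 3 was the low library in 6 of them. It held H2-Aa at 200.97 TPM where the next control held 894.13, H2-Ab1 at 146.17 beside 551.98, H2-Eb1 at 164.64 beside 783.02, H2-DMa at 21.47 beside 59.32, H2-Ob at 1.61 beside 2.37 and Cd74 at 328.46 beside 1445.19.

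Combination replicate 5 was the high library in the other 3. It held H2-DMb2 at 132.79 TPM where the next combination library held 21.36, H2-Oa at 54.48 beside 4.28 and H2-Ob at 152.52 beside 4.85.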

How the results depend on the processing

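The TPM table carries no read counts, so the precision of low genes such as H2-Oa and H2-Ob cannot be given, and a filter at 5 TPM dropped both. Another pseudocount, no filter, only the compared groups and a fit without trend or robust options moved no count of calls and turned no member's direction. Of 2366 member values under an alternative, 2256 kept their direction and side of the threshold.

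Weights per library called 11434 genes for propionate against control, 10256 for butyrate against control, 5786 for combination against control, 5026 for combination against propionate, 572 for combination against butyrate and 10982 for the interaction. Members called were 10 lower with propionate, 9 lower with butyrate, 6 higher for combination against propionate and 10 higher for the interaction. The members' propionate median was -1.63, with H2-DMb2 at -0.71 (adjusted p = 0.0374). For combination against control the weights gave H2-Aa -0.49, H2-Ab1 -0.37, H2-Eb1 -0.62, H2-DMa -0.30, H2-Oa -0.11, H2-Ob -0.27, Cd74 -0.71 and Ciita -0.87. For butyrate against propionate they gave H2-Aa 0.26, H2-Ab1 0.17, H2-Eb1 0.25, H2-DMa 0.075, H2-DMb1 0.21, H2-Oa 0.14, H2-Ob 0.22, Cd74 0.22 and Ciita 0.11. The lowest weights were 0.126 (combination replicate 5), 0.127 and 0.181 (propionate replicates 3 and 4) and 0.260 (control replicate 3), and the cause of the extra calls was not tested.

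For combination against control, median-of-ratios scaling called 35 genes and quantile normalization 41, no member among them, with Cd74 at -0.028 under the latter. Propionate against control put H2-Oa at 0.075 and 0.17 under these scalings, and butyrate against propionate put H2-Ob at 0.037 and 0.022.

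A replicate block by the number in the titles called 0 genes in all 7 comparisons, as did the fit without it. A replicate block by library number called 7903 genes for butyrate against control (7 members lower), 5 for combination against butyrate and 5426 for the interaction (7 members higher). It put H2-Oa at 0.035 for propionate against control, and H2-Eb1 at -0.12, Cd74 at -0.17 and Ciita at -0.12 for combination against control. The labels do not say that equal numbers mark paired samples, so the main fit did not take the numbers as pairs. Samples sharing a number did not deviate together in every pair. By title, 16 of 36 pairs had a correlation over 0.1, with a median of -0.073. By library number, 18 of 27 pairs did, with a median of 0.24.

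Leaving out 1 library at a time called 0 to 5654 genes for butyrate against control (most without control replicate 3), 0 to 5619 for the interaction (most without propionate replicate 3), 0 to 2 for combination against control (without combination replicate 6) and 0 to 1 for combination against butyrate (1 without butyrate replicate 6 or combination replicate 6). For combination against control it gave H2-Aa -0.19 to 0.57, H2-Ab1 -0.10 to 0.58, H2-Eb1 -0.34 to 0.47, H2-DMa -0.0075 to 0.54, H2-DMb1 -0.62 to 0.081, Cd74 -0.38 to 0.38 and Ciita -0.29 to 0.43, lowest without control replicate 3 and highest without combination replicate 6, and H2-Ob -0.12 to 1.14. For propionate against control it gave H2-DMb2 -0.037 to 0.42 and H2-Oa -0.32 to 0.15, and for butyrate against propionate H2-Ob -0.22 to 0.18. Of the log2 ratios, the H2-O share of H2-DM ran from -0.090 to 0.12 with propionate and from -0.10 to 0.89 with both acids, classical chains over H2-DM from -0.085 to 0.084 with both acids, and H2-Aa over C1qa from -0.059 to 0.22 with propionate and from -0.058 to 0.39 with both acids. The members' median ran from -0.86 to -0.27 for propionate against control, -0.68 to -0.12 for butyrate against propionate, -0.15 to 0.56 for combination against control and 0.49 to 1.08 for combination against propionate.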
